A study of Mus musculus with 24 samples.

Results

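Cone phototransduction genes encode the light-detection cascade of cone photoreceptors. The 10 genes described here, Opn1sw, Opn1mw, Gnat2, Gnb3, Gngt2, Pde6c, Pde6h, Cnga3, Cngb3 and Arr3, were taken by symbol as the opsins, transducin subunits, phosphodiesterase subunits, channel subunits and arrestin of that cascade. Each of the 10 matched 1 identifier among the 31053 genes counted. RNA from mouse retinal pigment epithelium (RPE) that had been isolated, the pigmented layer on which the photoreceptor outer segments rest, was read at its 3′ ends in 24 libraries. Mutant animals carried the floxed Ift20 allele and Dct-Cre, a driver that acts in pigment cells, and control animals were positive for the same Cre. Mutants and controls were each taken at 3 ages, P11 (11 days after birth), P29 (29 days) and 3M (3 months), and 4 libraries were made per genotype and age. All animals were untreated, on a mixed strain background, with sex not collected. The libraries of a group are numbered as biological replicates without a statement of how many animals each holds, so p-values reflect no more than the library-to-library spread, part of which may be technical.

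In a cone, light turns an opsin on, the opsin activates the heterotrimeric G protein transducin, and transducin releases the inhibitory subunit of a phosphodiesterase that breaks down cyclic GMP. The fall in cyclic GMP closes the cyclic nucleotide-gated channel of the outer segment, and arrestin ends the signal by binding the activated opsin. Most of these parts have a separate rod version, and rods far outnumber cones in the mouse retina. RPE cells take up the tips that photoreceptors shed and do not themselves use this cascade.

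The library totals ran from 1513440 to 2889946 gene counts, so that 3 counts, taken as the floor of detection, amounted to 1.04 to 1.98 CPM. CPM stands here for tag counts scaled to a common library total with TMM factors, and because the kit yields about 1 tag per transcript they were not divided by gene length. Most RPE markers were abundant, as the label has it. The summed level of the 12 RPE genes listed was 66517 to 69922 CPM in 3M mutants and 66406 to 69291 CPM in 3M controls. Ttr alone averaged 36134 CPM in 3M mutants and 35232 CPM in 3M controls. Best1 was nearly absent, with 3 counts over the 3M mutants and 1 over the 3M controls. Rod transcripts were also abundant, with 10 rod versions of the cascade adding up to 6776 to 7221 CPM in 3M mutants and 3848 to 4134 CPM in 3M controls. Among them Gnb1, the rod beta subunit, is not confined to rods, and averaged 734 CPM in 3M mutants and 563 CPM in 3M controls. The 10 cone genes were a minor part of every library. They summed to 398 to 506 CPM in P11 mutants and 297 to 408 CPM in P11 controls, to 186 to 217 CPM in P29 mutants and 131 to 141 CPM in P29 controls, and to 178 to 185 CPM in 3M mutants and 75.6 to 107 CPM in 3M controls. In such bulk samples fewer cells of a type and less RNA per cell cannot be told apart, and cone RNA carried over with the RPE cannot be told apart from RNA inside RPE cells.

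All positions are those of the GRCm38 annotation. The opsin genes are Opn1sw, for the short-wavelength opsin (ENSMUSG00000058831, chromosome 6, 29376671 to 29388468, minus strand), and Opn1mw, for the medium-wavelength opsin (ENSMUSG00000031394, chromosome X, 74127464 to 74150760, plus strand). Transducin is made from Gnat2 for the alpha subunit (ENSMUSG00000009108, chromosome 3, 108092789 to 108101432, plus strand), Gnb3 for beta (ENSMUSG00000023439, chromosome 6, 124834240 to 124840275, minus strand) and Gngt2 for gamma (ENSMUSG00000038811, chromosome 11, 95837216 to 95845734, plus strand). Pde6c encodes the catalytic phosphodiesterase subunit (ENSMUSG00000024992, chromosome 19, 38132781 to 38183958, plus strand) and Pde6h the inhibitory one (ENSMUSG00000064330, chromosome 6, 136923832 to 136968865, plus strand). Cnga3 (ENSMUSG00000026114, chromosome 1, 37214434 to 37263384, plus strand) and Cngb3 (ENSMUSG00000056494, chromosome 4, 19280850 to 19510623, plus strand) encode the channel. Arr3 encodes cone arrestin (ENSMUSG00000060890, chromosome X, 100605497 to 100618493, plus strand). The sources used here do not say whether counting used strand. In the last 500 exonic bases, 1 of 4 Opn1sw transcripts overlaps Calu, 1 of 4 Pde6h transcripts overlaps Arhgdib and 3 of 7 Gngt2 transcripts overlap Abi3, each on the opposite strand, so the levels of these 3 genes are uncertain to that extent.

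Promoters are shown for 4 genes, Opn1sw, Pde6h, Arr3 and Gnat2, picked with their values known. All 4 had 3M mutants wholly above 3M controls, as had Opn1mw and Gnb3. Gnat2 was also called higher at 3M than at P29, in mutants only. The sequences are the 250 bases before the RefSeq start on GRCm38.p6, 5′ to 3′ on the strand of the gene. Capitals mark TAATC on either strand (GATTA when read from the other), the core that photoreceptor homeodomain factors of the CRX and OTX type are known to bind.
Opn1sw (chr6:29380514-29380763, minus): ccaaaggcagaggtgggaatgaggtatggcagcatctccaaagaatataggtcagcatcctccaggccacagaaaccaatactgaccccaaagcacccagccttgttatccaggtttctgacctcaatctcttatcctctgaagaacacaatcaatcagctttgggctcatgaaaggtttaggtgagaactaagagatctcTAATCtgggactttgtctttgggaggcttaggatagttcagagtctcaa
Pde6h (chr6:136954273-136954522, plus): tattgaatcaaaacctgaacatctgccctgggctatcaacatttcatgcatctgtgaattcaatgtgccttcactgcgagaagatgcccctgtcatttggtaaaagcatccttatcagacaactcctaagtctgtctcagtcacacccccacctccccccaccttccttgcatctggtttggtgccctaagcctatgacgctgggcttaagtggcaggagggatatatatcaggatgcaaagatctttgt
Arr3 (chrX:100605247-100605496, plus): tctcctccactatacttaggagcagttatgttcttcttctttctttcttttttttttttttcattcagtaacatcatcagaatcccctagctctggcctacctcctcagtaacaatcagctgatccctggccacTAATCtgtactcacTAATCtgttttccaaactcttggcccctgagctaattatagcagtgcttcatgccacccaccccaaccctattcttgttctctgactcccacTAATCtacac
Gnat2 (chr3:108092816-108093065, plus): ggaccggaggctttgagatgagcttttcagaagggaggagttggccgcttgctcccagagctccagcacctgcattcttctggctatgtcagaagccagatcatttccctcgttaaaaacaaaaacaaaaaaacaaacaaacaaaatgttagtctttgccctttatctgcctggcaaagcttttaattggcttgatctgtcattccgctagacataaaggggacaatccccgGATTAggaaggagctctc

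The core occurred 3 times in the Arr3 promoter, once each in those of Opn1sw and Gnat2, and nowhere in these letters of Pde6h. Of all 32851 promoters of the same length in the table, 19.8% held at least 1 copy and 0.554% held at least 3. Promoters were matched for 6 of the 10 genes. The other 3 windows, for Opn1mw and a pair of Cnga3 starts, held no copy, and Pde6c, Gngt2, Gnb3 and Cngb3 had no entry. A match of letters is a description and not a binding site.

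**Figure D1:**
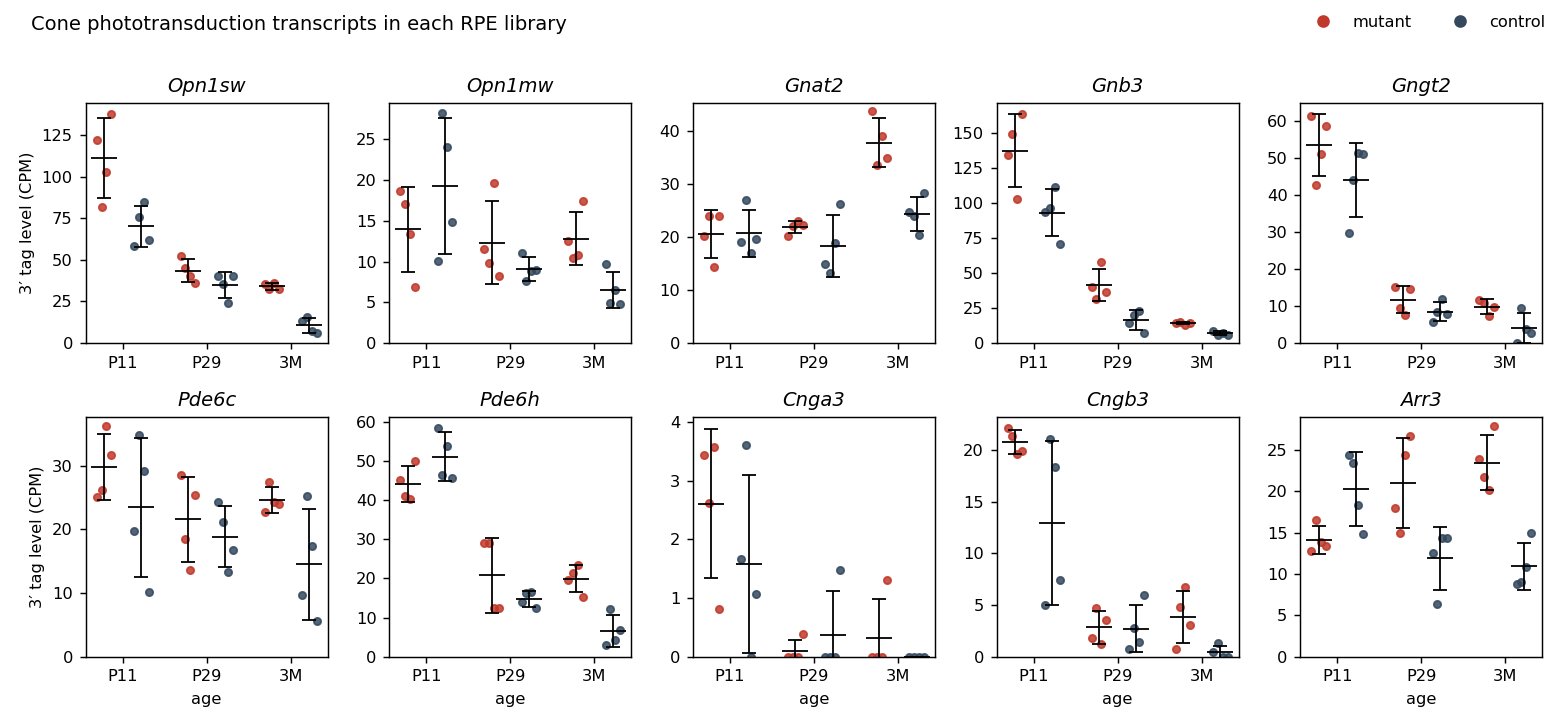
Level of each of the 10 cone genes (y axis, CPM, own scale per panel) in each library by age (x axis), with mutants in red on the left and controls in dark blue on the right of each age. Points are libraries, and the bars are the mean ± SD of 4 libraries. Opn1sw, Opn1mw, Arr3, Pde6h, Gnat2 and Gnb3 do not overlap between genotypes at 3M, and Gnat2 has its highest mean at 3M in both genotypes.

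The first question was how cone transcripts of mutant RPE compared with those of control RPE at each age. Differences were tested with the quasi-likelihood test of edgeR over all 12303 genes that passed a low-count filter, with Benjamini-Hochberg adjustment over them and a call at an adjusted p under 0.05. Of the 10 cone genes 9 passed the filter, and Cnga3 did not. At P11, 1 cone gene was higher in mutants and none was lower, where 3.26% of all tested genes were higher and 3.67% lower. At P29, 1 was higher and none lower, where 1.63% of all tested genes were higher and 1.21% lower. At 3M, 5 were higher and none was lower, where 2.13% of all tested genes were higher and 0.48% lower. The median log2 fold change of the 9 tested cone genes was 0.29 at P11, 0.43 at P29 and 1.09 at 3M, beside medians of 0.00, 0.00 and 0.03 over all tested genes.

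Opn1sw, the short-wavelength opsin of cones, was the cone gene with the clearest genotype difference at 3M. Its levels were 35.6, 32.2, 35.9 and 32.3 CPM in 3M mutants, against 13.5, 15.4, 7.41 and 6.06 CPM in 3M controls. The lowest mutant library lay above the highest control library, and the log2 fold change reached 1.69 (SE 0.24, edgeR adjusted p = 7.48e-08). P29 levels were 52.6, 45.3, 40.1 and 36.1 CPM in mutants, against 40.0, 35.5, 24.0 and 40.1 CPM in controls. These P29 groups overlapped and did not pass the test, with a log2 fold change of 0.32 (SE 0.20, edgeR adjusted p = 0.63). At P11 the levels were 122, 82.0, 103 and 138 CPM in mutants, against 58.2, 75.8, 84.8 and 61.6 CPM in controls. One mutant library fell below the highest control library at P11, and edgeR gave a log2 fold change of 0.67 (SE 0.19, adjusted p = 0.0162). Omitting P11 mutant replicate 1, P11 mutant replicate 4 or P11 control replicate 1 ended this call, at edgeR adjusted p of 0.06, 0.115 and 0.0816. The genotype difference of Opn1sw was larger at 3M than at P29 by 1.37 on the log2 scale (SE 0.32, edgeR adjusted p = 0.00721), where 0.61% of all tested genes had a difference that was higher at the later age.

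Opn1mw, the medium-wavelength opsin, had lower levels than Opn1sw in every library. It had 12.5, 10.5, 10.8 and 17.5 CPM in 3M mutants, against 9.68, 4.97, 6.54 and 4.85 CPM in 3M controls. The 3M groups did not overlap, but the log2 fold change of 0.97 (SE 0.41) did not pass the test (edgeR adjusted p = 0.302). At P11 and P29 its groups overlapped, with log2 fold changes of -0.45 (SE 0.39, edgeR adjusted p = 0.591) and 0.43 (SE 0.40, adjusted p = 0.793). Mouse cones can hold both opsins, and the share of Opn1sw among the tags of both genes was 64.9% to 76.9% in 3M mutants and 53.1% to 75.6% in 3M controls. The lowest of these, 53.1%, came from 32 tags and had a 95% Wilson interval of 36.4% to 69.1%, and the highest, 76.9%, had one of 68.0% to 84.0%. At P29 the share was 78.2% ± 7.36 in mutants and 78.9% ± 4.30 in controls, and at P11 it was 88.3% ± 5.18 in mutants and 79.1% ± 5.20 in controls (SD, n = 4). The genotypes overlapped in this share at all 3 ages.

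Among the transducin subunits, Gnb3 was the gene higher in mutants at P29. Gnb3 encodes the cone beta subunit and in mouse is also used by ON bipolar cells of the inner retina. Its P29 levels were 40.1, 31.5, 58.1 and 36.8 CPM in mutants, against 14.6, 19.9, 23.2 and 6.93 CPM in controls. The lowest mutant library was above the highest control library, with a log2 fold change of 1.33 (SE 0.22, edgeR adjusted p = 6.67e-06). At 3M it had 14.1, 15.2, 13 and 14.4 CPM in mutants, against 8.84, 5.42, 7.41 and 6.06 CPM in controls, again without overlap. For 3M edgeR gave a log2 fold change of 1.03 (SE 0.28, adjusted p = 0.022). That call did not survive omission of 3M mutant replicate 2 (adjusted p = 0.061), 3M mutant replicate 4 (0.0527), 3M control replicate 2 (0.0864) or 3M control replicate 4 (0.0884), nor did it pass with voom (0.257) or in a fit to the 3M libraries alone (0.139). At P11 Gnb3 had 138 CPM ± 26.1 in mutants and 93.0 CPM ± 16.8 in controls (SD, n = 4), a log2 fold change of 0.57 (SE 0.19) just outside the threshold (edgeR adjusted p = 0.0525). It passed at P11 without mutant replicate 3 (0.0271) or control replicate 3 (0.039), without the low-count filter (0.041), in a fit to the P11 libraries alone (0.0223) and with voom (0.0414).

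The other two transducin genes did not pass at any age. Gnat2, the alpha subunit that the opsins activate, had 43.8, 33.5, 39.1 and 34.9 CPM in 3M mutants, against 24.8, 23.9, 20.5 and 28.3 CPM in 3M controls. The groups did not overlap, and edgeR gave a log2 fold change of 0.63 (SE 0.26, adjusted p = 0.278). At P29 Gnat2 had 21.9 CPM ± 1.18 in mutants and 18.3 CPM ± 5.80 in controls, and at P11 20.6 CPM ± 4.57 in mutants and 20.7 CPM ± 4.38 in controls (SD, n = 4). Gngt2, the gamma subunit, had 11.7, 10.9, 7.19 and 9.61 CPM in 3M mutants, against 0, 9.48, 3.92 and 2.83 CPM in 3M controls. Control replicate 2 alone lay within the mutant range, and edgeR gave a log2 fold change of 1.30 (SE 0.41, adjusted p = 0.0654). Without that library it was 2.11 (edgeR adjusted p = 0.00151), without the low-count filter the adjusted p was 0.0486, and DESeq2 gave 0.0317.

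The inhibitory phosphodiesterase subunit Pde6h was, like Opn1sw, higher in 3M mutants in each of the 8 fits that left out 1 library of that age. It had 19.6, 21.3, 23.4 and 15.3 CPM in 3M mutants, against 2.95, 12.2, 4.36 and 6.87 CPM in 3M controls. The groups did not overlap, and edgeR gave a log2 fold change of 1.59 (SE 0.32, adjusted p = 0.000357). At P29 the mutants were split, at 29.0, 29.2, 12.4 and 12.5 CPM, against 13.9, 16.3, 16.6 and 12.4 CPM in controls. P29 mutant replicates 1 and 2 thus lay above all controls and replicates 3 and 4 within their range, with a log2 fold change of 0.48 (SE 0.29, edgeR adjusted p = 0.591). At P11 it averaged 44.1 CPM ± 4.48 in mutants and 51.1 CPM ± 6.16 in controls (SD, n = 4). The difference of its genotype effect between 3M and P29, 1.11 on the log2 scale (SE 0.43), did not pass (edgeR adjusted p = 0.308). The catalytic subunit Pde6c had 22.7 to 27.4 CPM in 3M mutants and 5.66 to 25.3 CPM in 3M controls. Its groups overlapped, with a log2 fold change of 0.77 (SE 0.32, edgeR adjusted p = 0.279). Without 3M control replicate 2 it was 1.17 (adjusted p = 0.0487).

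The channel genes had the lowest mean levels of the cascade at P29 and 3M, in mutants and in controls. Cngb3, the modulatory channel subunit, had 2, 11, 15 and 7 counts in the 3M mutants, against 1, 3, 0 and 0 counts in the 3M controls. These are 0.782, 4.79, 6.74 and 3.06 CPM in mutants, against 0.421, 1.35, 0 and 0 CPM in controls, with 1 mutant library inside the control range. In edgeR it had a log2 fold change of 2.99 (SE 0.82, adjusted p = 0.0226). It was lost without mutant replicate 2 (0.061) or 3 (0.139), without control replicate 1 (0.0649), 3 (0.103) or 4 (0.113), and with voom (0.181). At P11, where Cngb3 was best measured, it had 19.7 to 22.1 CPM in mutants and 5.01 to 21.1 CPM in controls, a log2 fold change of 0.70 (SE 0.54, edgeR adjusted p = 0.523). Cnga3, the subunit that forms the conducting channel, had 7, 6, 8 and 2 counts in P11 mutants, against 5, 6, 0 and 2 counts in P11 controls. At P29 it had 1 count in all over the mutants and 3 over the controls, and at 3M 3 over the mutants and 0 over the controls. Its difference between genotypes was therefore not detectable at this depth at P29 and 3M.

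Arr3, the cone arrestin, had 23.9, 21.8, 20.2 and 27.9 CPM in 3M mutants, against 8.84, 9.03, 10.9 and 15 CPM in 3M controls. The groups did not overlap, and edgeR gave a log2 fold change of 1.09 (SE 0.33, adjusted p = 0.0473). This call held without 3M control replicate 4 (adjusted p = 0.0369) and failed whenever another of that age's 8 libraries was omitted, with adjusted p from 0.064 to 0.182. It was also lost with median-of-ratios size factors (0.054) and without the low-count filter (0.0957). At P29 Arr3 had 18, 15, 24.3 and 26.6 CPM in mutants, against 12.5, 6.38, 14.4 and 14.4 CPM in controls, without overlap but with a log2 fold change of 0.82 (SE 0.33, edgeR adjusted p = 0.227). At P11 it averaged 14.1 CPM ± 1.67 in mutants and 20.3 CPM ± 4.47 in controls (SD, n = 4), a log2 fold change of -0.52 (SE 0.33, adjusted p = 0.403). The difference between its P29 and P11 effects, 1.34 on the log2 scale (SE 0.46), did not pass in edgeR (adjusted p = 0.106) and passed in DESeq2 (adjusted p = 0.0211). No cone gene passed in edgeR for that difference, where 2.63% of all tested genes did, and 2, Arr3 and Gnb3, had an unadjusted p under 0.05.

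Of the 9 tested cone genes, 6 had 3M mutants wholly above 3M controls, where 5.07% of all tested genes did. At P29 these were 2, Arr3 and Gnb3, where 3.67% of all tested genes did, and at P11 none, where 5.36% did. No tested cone gene had mutants wholly below controls at any age, where 4.97%, 4.09% and 3% of all tested genes did at P11, P29 and 3M.

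Rod transcripts were the nearest comparison, since they come from the other photoreceptor of the same retina, though Gnb1 among them is not confined to rods. Of the 10 rod versions of the cascade, 4 were higher in mutants at P11, 9 at P29 and 9 at 3M, and none was lower. Pde6g, the rod inhibitory subunit, had 452 CPM ± 10.6 in 3M mutants and 270.0 CPM ± 29.3 in 3M controls (SD, n = 4), a log2 fold change of 0.74 (SE 0.07, edgeR adjusted p = 1.02e-14), beside 1.59 for Pde6h. Gnat1, the rod alpha subunit, had a log2 fold change of 0.76 (SE 0.07, adjusted p = 1.23e-16), beside 0.63 for Gnat2. Sag, the rod arrestin, had 1.13 (SE 0.06, adjusted p = 5.6e-30), beside 1.09 for Arr3. The differences within these pairs were not tested pair by pair.

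To test the cone genes against rods, the same fit was run with each library scaled to the summed counts of 11 rod genes in place of its total. This scaling moved the median log2 fold change of all tested genes to -0.23 at P11, -0.52 at P29 and -0.79 at 3M. At 3M, 3 cone genes were higher in mutants relative to rod transcripts, where 0.699% of all tested genes were. Opn1sw was higher by 0.86 on the log2 scale (SE 0.25, edgeR adjusted p = 0.00268), Pde6h by 0.78 (SE 0.33, adjusted p = 0.0383) and Cngb3 by 2.27 (SE 0.89, adjusted p = 0.0232). The calls of Arr3 (0.27, SE 0.33, adjusted p = 0.487) and Gnb3 (0.20, SE 0.30, adjusted p = 0.571) were lost. The adjusted p-values of this fit are less strict, since the scaling moved the median of all genes away from 0. Under the library total at 3M, Gnat2 at 0.63 (SE 0.26) had an edgeR adjusted p of 0.278, beside 0.0383 here for Pde6h. At P29, 1 cone gene was higher relative to rods, where 0.577% of all tested genes were. This was Gnb3, by 0.82 (SE 0.24, edgeR adjusted p = 0.00491). The 9 log2 fold changes at P29 were all above 0 when scaled to the library total, and 7 of them were below 0 when scaled to rods. At P11 no cone gene was called relative to rods, where 0.805% of all tested genes were higher, with Opn1sw at 0.44 (SE 0.21, adjusted p = 0.166). The Opn1sw difference between 3M and P29 was also lost with this scaling (1.07, adjusted p = 0.067).

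**Figure D2:**
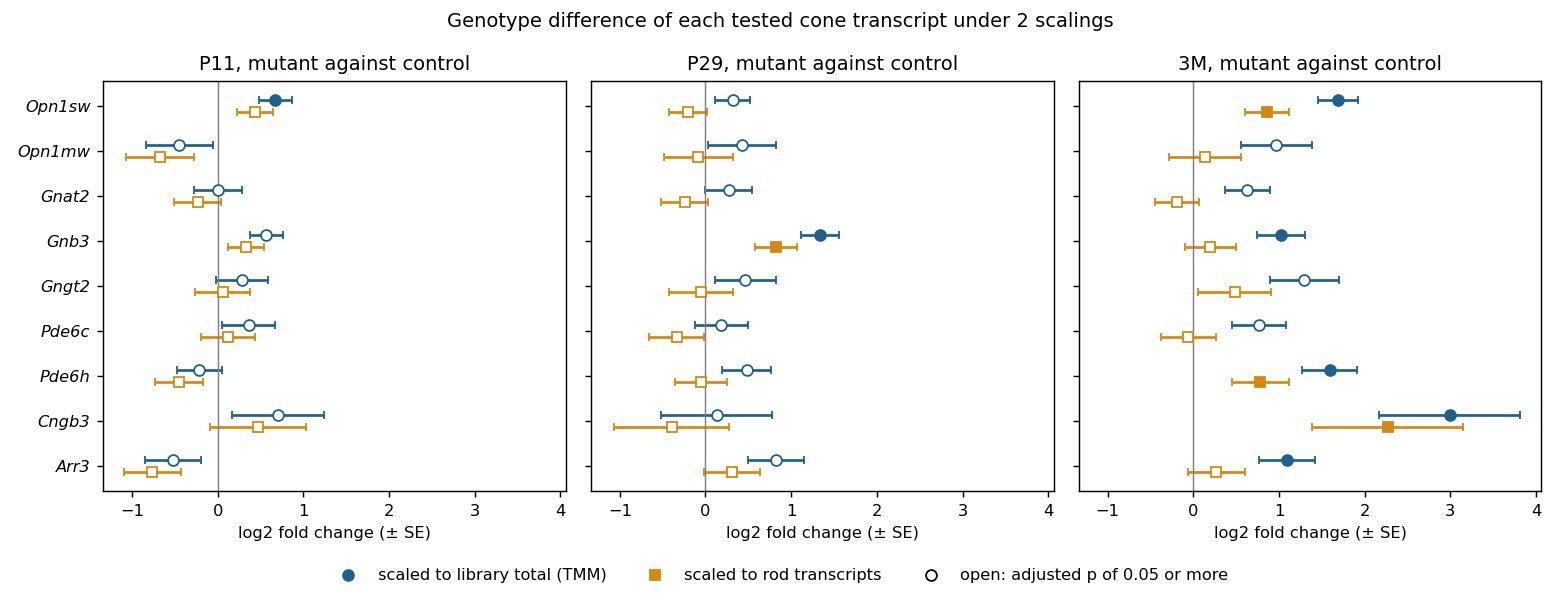
Log2 fold change of mutant against control RPE (x axis, ± SE) for the 9 tested cone genes at each age, scaled to the library total (blue circles) and to rod transcripts (orange squares). Filled symbols have an adjusted p under 0.05 within their own scaling, and the scalings are not equally strict. At 3M Opn1sw, Pde6h and Cngb3 are filled under both scalings, and Arr3 and Gnb3 under the library total alone.

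As a ratio within each library, the 10 cone genes gave 26.6 to 28.6 tags per 1000 tags of the 11 rod genes in 3M mutants and 20.02 to 28.8 in 3M controls. At P29 the ratio was 12.2 to 14.9 in mutants and 12.6 to 13.9 in controls, and at P11 30.3 to 40.0 in mutants and 26.1 to 38.2 in controls. Genotypes overlapped in this ratio at each age. At 3M the overlap rested on control replicate 2, at 28.8, with the other controls at 22.4, 21.5 and 20.02, below every mutant. Between ages the ratio did not overlap in mutants or in controls for P29 against either other age.

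**Figure D3:**
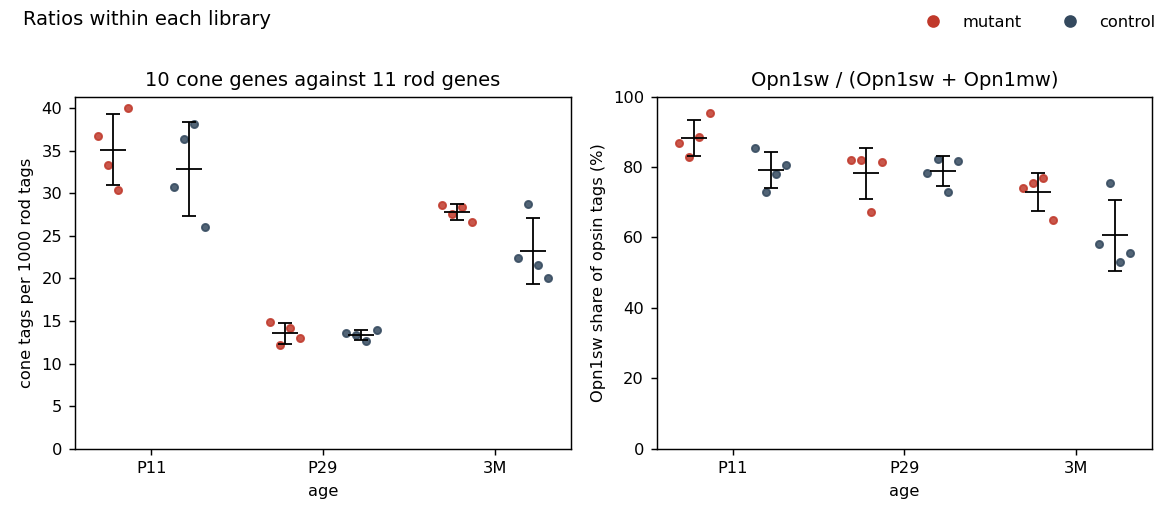
Left, summed tags of 10 cone genes per 1000 summed tags of 11 rod genes in each library. Right, percent of Opn1sw among Opn1sw and Opn1mw tags. The x axis is age, mutants are red and on the left of controls, and bars are the mean ± SD of 4 libraries. The ratio to rods is lowest at P29 in both genotypes, and the genotypes overlap at each age in both panels. In the left panel the overlap at 3M rests on control replicate 2.

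Other transcripts of photoreceptors were examined beside the cascade. Of 17 genes that rods and cones share, 4 were higher in mutants at P11, 11 at P29 and 13 at 3M, and none was lower. At P11 they were the outer segment protein gene Rom1 at 0.68 (SE 0.08), Aipl1, a chaperone of the phosphodiesterase, at 0.72 (SE 0.10), phosducin, Pdc, at 0.44 (SE 0.08) and Rgs9bp, the anchor of the transducin-deactivating complex, at 0.50 (SE 0.13). At 3M the 3 with the smallest p were Prph2 at 0.74 (SE 0.07), Pdc at 1.11 (SE 0.09) and recoverin, Rcvrn, at 0.87 (SE 0.09), and at P29 Rbp3 at 0.71 (SE 0.09), Aipl1 at 0.86 (SE 0.11) and Prph2 at 0.52 (SE 0.07). Of 17 further genes used in cones, many of them in rods too, 16 were tested, and 2 were higher at P29 and 5 at 3M. Cacna2d4, an auxiliary calcium channel subunit of photoreceptor synapses, had 24.2 CPM ± 5.86 in 3M mutants and 12.3 CPM ± 4.45 in 3M controls (SD, n = 4). Nxnl1 at 0.46 (SE 0.13) and Sall3 with 21 counts in mutants and 0 in controls, both also called at 3M, were picked for naming after their values were seen. Thrb, the thyroid hormone receptor gene that drives medium-wavelength opsin, had 68.6 CPM ± 7.54 in 3M mutants and 74.7 CPM ± 4.25 in 3M controls.

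Signs of other cell types and of RNA makeup moved with some of these groups. Of 11 bipolar cell genes 9 were tested, of which 1 was higher at P11, 1 at P29 and 4 at 3M, and none was lower. Their summed level was 693 to 785 CPM in P11 mutants and 488 to 582 CPM in P11 controls, 218 to 266 CPM in P29 mutants and 215 to 240 CPM in P29 controls, and 130 to 145 CPM in 3M mutants and 115 to 132 CPM in 3M controls. In 3M mutants 1 of the 11, Vsx1, had no count, and in 3M controls 6 had none, among them Vsx1, Grm6, Cabp5, Scgn and Isl1. The 9 lens genes summed to 901 to 1008 CPM in P29 mutants and 35.4 to 48.5 CPM in P29 controls. Of these 9 lens genes 4 were lower in mutants at P11 and 8 were higher at P29. Of 11 tested RPE genes 8 were lower in mutants at P11, 2 were higher and 5 lower at P29, and 1 was lower at 3M. Their summed level was 18450 to 19316 CPM in P11 mutants and 19524 to 20273 CPM in P11 controls, and 42374 to 44850 CPM in P29 mutants and 49357 to 50217 CPM in P29 controls. Of 10 tested genes of amacrine, horizontal and ganglion cells 1 was higher and 1 lower at P11, and 1 was higher at P29 and 1 at 3M. Of 7 tested Müller glia genes 3 were lower at P11, and 1 was higher at P29 and 1 at 3M. Mitochondrial transcripts took 10.2% to 11.1% of gene counts in P11 mutants and 7.30% to 8.79% in P11 controls. Reads outside any feature made up 26.5% to 27.5% in P11 mutants and 22.7% to 24.1% in P11 controls. The number of genes with a count was 14599 to 14709 in P11 mutants and 13363 to 14057 in P11 controls, and 13943 to 14043 in 3M mutants and 13132 to 13369 in 3M controls. The part of these measures in the cone gene differences was not tested.

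The second question was how cone transcripts changed with age in each genotype. Between P11 and P29, 5 cone genes fell in mutants, where 15.2% of all tested genes fell, and 6 fell in controls, where 15.6% fell. No cone gene rose, where 16.4% of all tested genes did in mutants and 16.5% in controls. The 5 in mutants were Opn1sw, Pde6h, Gngt2, Gnb3 and Cngb3, and those in controls were the same 5 genes and Opn1mw. Gnb3 in mutants had 103 to 164 CPM at P11 and 31.5 to 58.1 CPM at P29, a log2 fold change of -1.73 (SE 0.20, edgeR adjusted p = 3.36e-12). In controls, where its fall was the largest among the tested cone genes, it had 70.7 to 111 CPM at P11 and 6.93 to 23.2 CPM at P29, a log2 fold change of -2.49 (SE 0.22, adjusted p = 9.14e-18). Gngt2, the partner gamma subunit, had log2 fold changes of -2.19 (SE 0.33, adjusted p = 4.06e-08) in mutants and -2.36 (SE 0.34, adjusted p = 1.24e-08) in controls. Cngb3 had -2.83 (SE 0.60, adjusted p = 6.65e-05) in mutants and -2.26 (SE 0.61, adjusted p = 0.00198) in controls. Gnat2 stood at 0.09 (SE 0.27, adjusted p = 0.847) in mutants and -0.19 (SE 0.28, adjusted p = 0.662) in controls. The difference in course between the transducin genes was not tested.

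The Opn1mw fall in controls had a log2 fold change of -1.06 (SE 0.40, edgeR adjusted p = 0.0322) and rested on several libraries. It was lost without P11 control replicate 2 (0.151) or 3 (0.0954), without P29 control replicate 2 (0.0823), 3 (0.0654) or 4 (0.0609), with voom (0.0884) and without the low-count filter (0.0577). Arr3 in controls had -0.77 (SE 0.33, adjusted p = 0.0615), and passed without P11 control replicate 4 (0.0391), with median-of-ratios size factors (0.0391) and with DESeq2 (0.0126). Scaled to rods, the same 5 genes were lower at P29 in each genotype, where 20.9% of all tested genes were lower in mutants and 13.1% in controls. Opn1mw in controls then had an adjusted p of 0.0598. Bipolar genes also fell in this interval, 9 of the 9 tested in mutants and 9 of 9 in controls, and their part in the fall of Gnb3 was not tested. RPE genes rose in the same interval, 9 of the 11 tested in mutants and 9 of 11 in controls. Their summed level averaged 18702 CPM at P11 and 43812 CPM at P29 in mutants, and 19891 CPM at P11 and 49853 CPM at P29 in controls. The part of this shift in library makeup in the cone gene changes was not tested.

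From P29 to 3M the genotypes differed in which cone genes passed. In mutants 1 was lower, where 7.27% of all tested genes were, and 1 was higher, where 5.44% were. In controls 4 were lower, where 8.5% of all tested genes were, and none was higher, where 3.49% were. Of the 9 tested bipolar genes, 1 was lower at 3M in mutants and 4 in controls, and none was higher. RPE genes were higher for 7 of the 11 tested and lower for 2 in each genotype. The part of either in the cone gene changes was not tested. The log2 fold change of Opn1sw was -0.35 (SE 0.21, edgeR adjusted p = 0.308) in mutants, against -1.72 (SE 0.24, adjusted p = 8.03e-09) in controls, and the difference between them is the one tested above. Pde6h stood at -0.06 (SE 0.28, adjusted p = 0.942) in mutants and fell by 1.17 on the log2 scale (SE 0.33, adjusted p = 0.0071) in controls, a call lost without 3M control replicate 1 (0.0669) or in a fit to these libraries alone (0.0523). Gnb3 fell in both genotypes, by 1.55 (SE 0.23, adjusted p = 7.18e-08) in mutants and by 1.24 (SE 0.27, adjusted p = 0.00042) in controls, the second of these lost with voom (0.12). Cngb3 had -2.46 (SE 0.85, adjusted p = 0.042) in controls. That call was lost without P29 control replicate 2 (0.0708) or 4 (0.254), without 3M control replicate 1 (0.0865), 3 (0.131) or 4 (0.145), and with voom (0.234). Gngt2 in controls had -1.07 (SE 0.41, adjusted p = 0.0749), passed with DESeq2 (0.0497), and had -1.89 (adjusted p = 0.00224) without 3M control replicate 2.

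Gnat2 was the cone gene that was higher at 3M than at P29 in mutants. It had 20.3, 22.1, 23.1 and 22.3 CPM in P29 mutants and 43.8, 33.5, 39.1 and 34.9 CPM in 3M mutants, with no overlap between the ages. In edgeR it had a log2 fold change of 0.79 (SE 0.26, adjusted p = 0.034). This call held without 3M mutant replicate 2 (0.0443) and failed whenever another of the 8 libraries was omitted, with adjusted p from 0.0526 to 0.122, and without the low-count filter (0.0677). In controls Gnat2 had 15, 13.1, 18.8 and 26.3 CPM at P29 and 24.8, 23.9, 20.5 and 28.3 CPM at 3M, with overlap and a log2 fold change of 0.43 (SE 0.27, adjusted p = 0.376).

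Rod transcripts fell over the same interval, with 10 of the 10 rod versions lower at 3M in mutants and 10 of 10 in controls. Scaling to rods moved the median of all tested genes to 1.15 in mutants and 1.44 in controls. Of the tested cone genes 8 were then higher at 3M in mutants and 4 in controls, and none was lower, where 70.1% of all tested genes were higher in mutants and 76.4% in controls. The median cone value with this scaling was 1.21 in mutants and 0.38 in controls. Gnat2 relative to rods was higher by 1.90 (adjusted p = 1.33e-09) in controls.

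**Figure D4:**
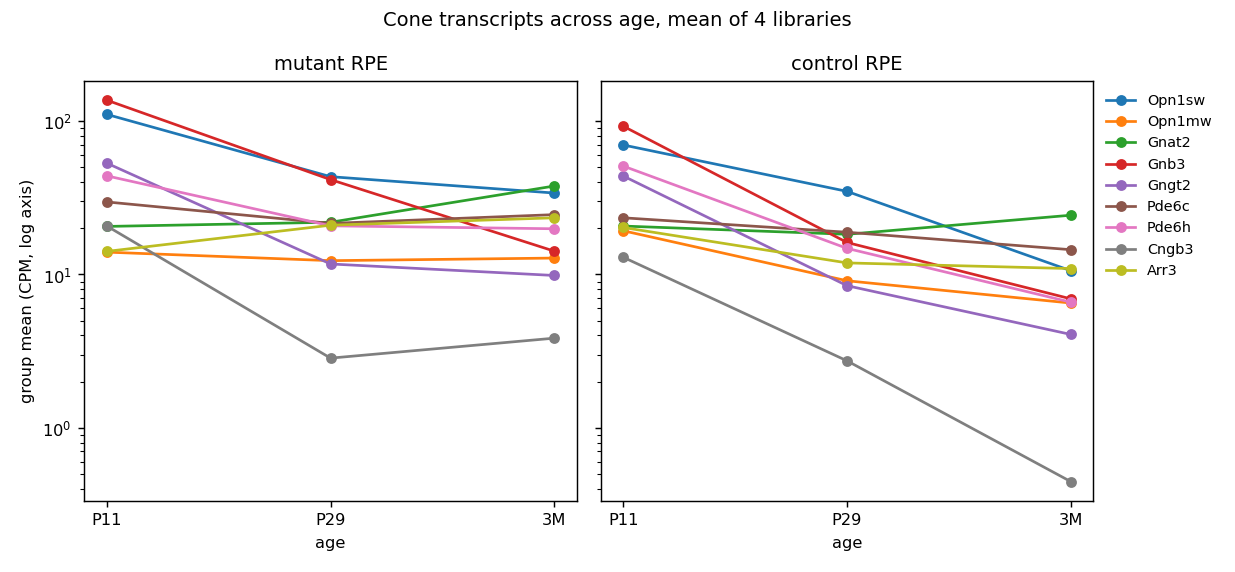
Group mean of each tested cone gene (y axis, CPM, log axis) at P11, P29 and 3M (x axis), in mutants on the left and controls on the right. Each line is 1 gene and each point the mean of 4 libraries. Gnb3, Gngt2 and Cngb3 drop most between P11 and P29 in both panels, Opn1sw drops between P29 and 3M in controls, and Gnat2 ends at 37.8 CPM in mutants and 24.4 CPM in controls.

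The shares of single genes in the summed tags of the 10 cone genes are a description, and the part of bipolar cells in the Gnb3 tags was not tested. Gnb3 made up 30.6% ± 4.13 of the tags of the 10 genes in P11 mutants and 26.1% ± 2.65 in P11 controls, and 7.85% ± 0.579 in 3M mutants and 8.44% ± 2.61 in 3M controls (SD, n = 4). Gnat2 made up 4.58% ± 0.864 in P11 mutants and 5.88% ± 1.18 in P11 controls, and 20.9% ± 2.24 in 3M mutants and 29.4% ± 6.57 in 3M controls. Opn1sw made up 18.8% ± 0.941 in 3M mutants and 12.2% ± 4.23 in 3M controls, and its ranges of 17.9% to 19.9% and 8.02% to 17.1% did not overlap.

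Across the 24 libraries the pairwise Pearson correlation of log2 CPM among the 9 tested cone genes had a median of 0.52 over 36 pairs, from -0.34 for Gnat2 with Gnb3 to 0.92 for Pde6h with Gngt2. After each group mean was removed the median was 0.01, from -0.48 to 0.60. The points share libraries and depth, and the counts are low, so these are descriptions. The 10 other named genes whose log2 CPM was most like the mean standardised level of the tested cone genes were Adgrb3, Snhg11, Gpr162, Cp, Taf1d, Mir124-2hg, Fam155a, Drd4, Dclk2 and Sphkap, with Pearson correlations of 0.87 to 0.91 over the 24 libraries. Group means were not removed for these 10 genes, so their correlations include the differences between ages and genotypes. Drd4, for the D4 dopamine receptor that photoreceptors carry, was picked from the 10 for comment.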

How the data were processed

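RNA of isolated RPE was made into 3′ mRNA libraries with the QuantSeq kit and sequenced as single reads, per the labels' protocols. The authors deposited whole-number counts per Ensembl gene, with a file for each library. The submitters' processing notes name STAR, with no version, and mm10. No source used here states the counter, its annotation, its use of strand or of molecular identifiers. Each file held 31053 genes and 5 special entries, which stayed out of totals and tests: 18.6% to 27.5% of all counted reads fell in no feature, 31% to 37.2% aligned to several places and 0.192% to 0.322% were ambiguous. Symbols and positions came from GENCODE M21 (GRCm38), which matched 30934 identifiers.

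Counts were tested with edgeR 4.0.16 in R 4.3.3 (TMM, filterByExpr on groups, robust quasi-likelihood, 12303 genes) on all 24 libraries with 1 mean per group. Contrasts set mutants against controls within an age, neighbouring ages within a genotype, and the difference of genotype effects between neighbouring ages. The method was checked on simulated counts. The standard error was taken as the absolute log2 fold change over the square root of F. A prior count of 1 entered the log2 CPM of correlations only. Intervals and floors cover counting error only. Rod scaling replaced the effective library size by the summed counts of 11 rod genes, among them Sag, Pde6a, Pde6b, Pde6g, Gnat1, Gngt1, Cnga1, Cngb1, Nrl and Nr2e3. Alternatives used DESeq2 1.42.0 and voom with quality weights of limma 3.58.1, other filters and scalings, and left out each library in turn. Within groups no library was a copy of another, with a chi-square per gene of 2.98 to 7.15 over 36 pairs. Libraries of different groups were not compared by this measure. The cone genes, lists and tests were chosen with earlier results of these data known. Genes were named by rule: all 10 cone genes, their rod versions and the 10 most alike genes with a formal symbol. From the shared photoreceptor genes and the further cone genes, the rule took up to 3 with the smallest p per genotype comparison. The text also names genes outside this rule, among them Rgs9bp, Thrb, Nxnl1, Sall3, Ttr and Best1. Of the rod versions the text gives the fold changes of 3, a choice made after values were seen. Some genes that the rule names are not reported here. The genotype labels were not checked on Ift20, since tags from the 3′ end need not cover the deleted part.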

Additional observations from a re-analysis of the deposited data

Results flagged for a closer look

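The genotype difference of Opn1sw differed between ages: it was larger at 3M than at P29 by 1.37 on the log2 scale (SE 0.32, edgeR adjusted p = 0.00721), with 3M mutants higher in 4 of 4 libraries. It held without any 1 of the 16 libraries involved. In the rod-scaled fit it was 1.07 (adjusted p = 0.067).

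Of 71 groups of 4 values examined, 4 were flagged for 1 library apart from the other 3. Chance alone flags about 1 group in 20 for normally distributed values, a rate that does not hold for counts near 0. The Opn1sw share of opsin tags was 67.1% in P29 mutant replicate 3 and 81.4% to 82.1% in the other P29 mutants. Cnga3 was counted in 1 library each of the P29 mutants (replicate 4, 0.392 CPM), the P29 controls (replicate 4, 1.49 CPM) and the 3M mutants (replicate 4, 1.31 CPM), from 1, 3 and 3 counts, and had no count in the other libraries of those groups. The rule flags any group with counts in only 1 library, so the Cnga3 flags were fixed in advance by the low counts.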

How the results depend on the processing

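Leaving out 1 library at a time, the number of cone genes called was 0 to 2 for mutant against control at P11, 1 at P29 and 2 to 5 at 3M. It was 5 in mutants and 5 to 7 in controls for P29 against P11, 1 to 2 in mutants and 2 to 5 in controls for 3M against P29, 0 for the genotype effect at P29 minus P11 and 1 for that at 3M minus P29. At P11 the count was 2 without the low-count filter, in a fit to only the groups compared and with voom, and 0 when scaled to rods. For 3M mutants against controls it was 3 when scaled to rods, in a fit to only the groups compared and with voom. For 3M against P29 it was 2 in controls in a fit to only the groups compared and with voom, and 1 in mutants without the low-count filter. Scaled to rods it was 8 in mutants and 4 in controls, all higher, where 70.1% and 76.4% of all tested genes were higher. DESeq2 called 1 cone gene, Arr3, for the effect at P29 minus P11, where edgeR called 0, and 2 passed there at an unadjusted p under 0.05 with edgeR. Scaled to rods, the effect at 3M minus P29 gave 0.

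Values called in either fit that changed sign did so when scaled to rods, for 3M against P29. They were Opn1sw 0.81, Pde6h 1.11 and Gngt2 0.91 in mutants, and Opn1mw 0.99, Arr3 1.35, Pde6c 1.07, Pde6h 0.28 and Gnb3 0.23 in controls. Only Pde6h and Gnb3 in controls had been called under the library total, and the others were called only when scaled to rods. That scaling divides by transcripts that themselves fell. Same-numbered libraries of the genotypes did not deviate together (correlations -0.02 to 0.03 over 12 pairs), and the labels state no pairing. A pairing with a small shared effect could not be seen this way. With the replicate number as a block 2 cone genes were called at P11, Opn1sw and Gnb3 (0.60, adjusted p = 0.0405), and no other count changed. Depth limits Cnga3 and Cngb3 most, with totals of 0 to 4 counts over the 3M controls.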
